A study of Schizosaccharomyces pombe with 24 samples.

Results

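Reads from nuclear transfer RNA genes were followed in small RNA of the fission yeast Schizosaccharomyces pombe after its nitrogen source was removed, when the yeast stops dividing and becomes quiescent. The genes were all features whose identifier holds the code for a nuclear tRNA and not the code for a mitochondrial one: 171 of 6878 counted features, in 20 amino acid groups. The strain labelled wild type (wt) was 975 h+, and the strains labelled ago1D, clr4D and dcr1D were described as 975 h+ with ago1 (Argonaute), clr4 (a histone H3 lysine 9 methyltransferase) or dcr1 (Dicer) replaced by NatMX6. All were grown at 32 °C in supplemented EMM, washed, and moved to EMM lacking nitrogen. Each strain had 1 library at each of 0, 1, 2, 4, 10 and 24 h, so there were 24 libraries and no strain and time had a replicate. Inserts of 20 to 30 bases were cut from gels, so the reads are fragments and not whole tRNAs. Each library is a bulk sample read relative to its own total, so fewer cells of a kind and less RNA per cell cannot be told apart.

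Transfer RNAs carry amino acids to the ribosome. RNA polymerase III transcribes them from promoters that lie inside the gene, and the precursor is trimmed at both ends, spliced where it has an intron, and modified. In budding yeast and other eukaryotes mature tRNAs are cleaved into fragments under starvation and other stress, and in fission yeast clusters of tRNA genes flank the centromeres.

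Most tRNA genes exist as near-identical copies, and which of them could be counted at all followed from their sequence. The deposited counts keep only reads placed with confidence at 1 position, and 67.3% to 97.35% of the reads in a file were set aside for low mapping quality. Of the 171 genes, 43 had no count in any library, 59 had 1 to 99 counts and 69 had 100 or more. The 171 genes held only 64 distinct exonic sequences, as annotated by RefSeq for the ASM294v3 assembly, which is not the ASM294v2 assembly named for the authors' alignment. In 32 cases a sequence belonged to 1 gene alone. These 32 genes held 97.19% of all 1911986 tRNA counts (median 13174 per gene), against a median of 32 for the 139 genes that shared their sequence, 40 of which had no count.

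Each gene was also cut into windows of 25 bases, inside the gene and across its ends, and each window was looked for in the whole genome. No window was found at 1 place only for 39 genes, and all 39 had 0 counts. For 95 genes only windows that reached past an end of the gene were unique. They had a median of 67 counts and 0.937% of the tRNA counts, and 3 of them had none. Another 28 genes were unique over part of their length (median 5646.5 counts, 28.5% of the counts) and 9 over their whole length (70.5%). SPATRNALEU.03 was unique throughout and yet had 0 counts in all 24 libraries. A count of 0 allows up to 3 counts, or 0.267 CPM over the 11232626 gene counts, for uniquely placed reads only. The 43 genes without a count lay in 9 stretches of the genome when neighbours within 20 kb were joined. The 3 largest held 21 genes on chromosome II, 10 on III and 6 on I.

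**Figure D1:**
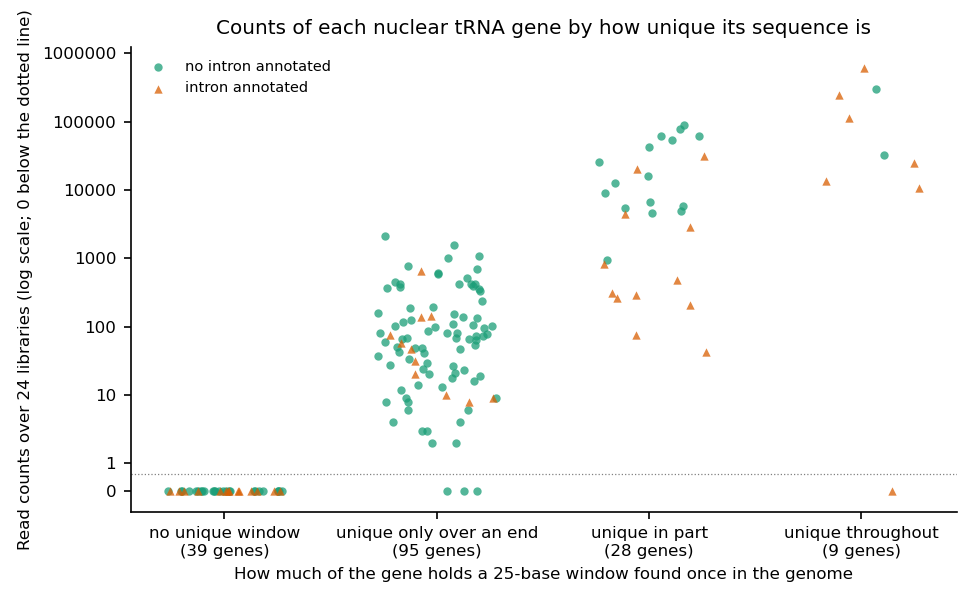
Counts of each of the 171 genes over 24 libraries (y axis, log scale, with genes at 0 drawn below the dotted line) by how much of the gene holds a 25-base window found once in the genome; each point is 1 gene, with triangles for genes annotated with an intron. All 39 genes with no unique window sit at 0, and the median count is 67 for genes unique only over an end, 5646.5 for those unique in part and 32081 for those unique throughout, of which SPATRNALEU.03 is at 0.

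The sequences show what could be counted from the unspliced genes. They run 5′ to 3′ and were read by gene identifier from the RefSeq ASM294v3 assembly, introns included. Capitals mark bases covered by a 25-base window found only there in the genome. The windows were cut from the unspliced gene, so reads that cross a splice junction are not covered by them. The 4 genes with the most counts are in capitals throughout, and SPATRNALEU.03 is shown with them as the gene without a count.
SPATRNALEU.01: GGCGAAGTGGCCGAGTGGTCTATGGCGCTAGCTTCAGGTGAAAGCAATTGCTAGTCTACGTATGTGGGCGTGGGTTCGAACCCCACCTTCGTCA
SPCTRNAARG.10: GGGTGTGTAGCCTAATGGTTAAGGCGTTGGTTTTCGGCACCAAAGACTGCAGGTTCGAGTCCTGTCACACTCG
SPBTRNAARG.05: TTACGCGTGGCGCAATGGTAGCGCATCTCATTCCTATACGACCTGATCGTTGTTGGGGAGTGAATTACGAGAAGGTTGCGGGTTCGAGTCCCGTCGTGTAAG
SPATRNAALA.06: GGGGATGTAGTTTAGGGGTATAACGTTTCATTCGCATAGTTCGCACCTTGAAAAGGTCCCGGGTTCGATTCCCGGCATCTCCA
SPATRNALEU.03: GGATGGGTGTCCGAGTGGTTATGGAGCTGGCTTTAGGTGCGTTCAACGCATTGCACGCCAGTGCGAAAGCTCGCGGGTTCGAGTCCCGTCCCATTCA

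SPATRNALEU.01 lies on the minus strand of chromosome I and has an intron of 10 bases. SPCTRNAARG.10 has no intron and lies on the minus strand of III. SPBTRNAARG.05 lies on the minus strand of II and has an intron of 30 bases. SPATRNAALA.06 lies on the plus strand of I and has an intron of 11 bases, and SPATRNALEU.03 lies on the plus strand of I and has one of 18 bases.

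A single base separated genes with many counts from copies with few. Counted from 1 at the 5′ end, SPBTRNATHR.07 differs from SPATRNATHR.03 by A56G, the first base being that of SPBTRNATHR.07. The SPBTRNATHR.07 sequence is held by 6 genes and SPBTRNATHR.07 had 446 counts, whereas SPATRNATHR.03, the only gene with its sequence, had 53993. SPBTRNAARG.04 and SPCTRNAARG.08 differ by T50C, and inside each gene only the stretch in capitals is unique; they had 61837 and 43420 counts.
SPBTRNATHR.07: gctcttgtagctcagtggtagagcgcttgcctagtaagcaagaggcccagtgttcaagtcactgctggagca
SPATRNATHR.03: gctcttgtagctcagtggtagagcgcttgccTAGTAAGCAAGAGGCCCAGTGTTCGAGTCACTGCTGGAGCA
SPBTRNAARG.04: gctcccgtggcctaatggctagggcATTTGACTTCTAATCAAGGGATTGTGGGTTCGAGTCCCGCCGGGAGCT
SPCTRNAARG.08: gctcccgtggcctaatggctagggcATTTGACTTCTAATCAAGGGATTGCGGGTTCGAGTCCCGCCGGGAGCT

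The genes on which the comparisons below turn include SPATRNALYS.01, whose exons are shared by 8 genes but whose 8-base intron makes its middle unique. SPBTRNATHR.06 and SPCTRNATHR.10 differ by T4C and A68G. SPATRNASER.01 has an intron of 16 bases. SPBTRNAHIS.02, SPATRNAASP.01 and SPCTRNAGLU.10 have no base in capitals, so a 25-base read could be placed there only if it ran past an end of the gene.
SPATRNALYS.01: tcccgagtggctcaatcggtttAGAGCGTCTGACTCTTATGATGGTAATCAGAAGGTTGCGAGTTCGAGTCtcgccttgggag
SPBTRNATHR.06: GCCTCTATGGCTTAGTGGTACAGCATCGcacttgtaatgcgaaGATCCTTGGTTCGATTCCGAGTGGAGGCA
SPCTRNATHR.10: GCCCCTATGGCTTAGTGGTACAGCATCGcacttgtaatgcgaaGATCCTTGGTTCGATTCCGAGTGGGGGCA
SPATRNASER.01: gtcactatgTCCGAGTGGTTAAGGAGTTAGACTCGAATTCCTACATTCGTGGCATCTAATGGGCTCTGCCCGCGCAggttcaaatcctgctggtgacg
SPBTRNAHIS.02: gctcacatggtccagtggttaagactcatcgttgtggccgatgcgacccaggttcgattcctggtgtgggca
SPATRNAASP.01: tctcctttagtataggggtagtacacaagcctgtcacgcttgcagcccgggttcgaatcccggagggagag
SPCTRNAGLU.10: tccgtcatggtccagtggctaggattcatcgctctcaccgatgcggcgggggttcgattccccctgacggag

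Few genes supplied most reads. The 3 genes with the most counts, SPATRNALEU.01 (609722 counts), SPCTRNAARG.10 (298014) and SPBTRNAARG.05 (245042), held 60.3% of the tRNA counts, and the leading 12 held 90.1%. By amino acid, arginine genes held 34.5%, leucine 31.9%, glycine 8.36%, threonine 7.76% and alanine 6.02%. The smallest groups were glutamate with 875 counts, methionine with 437 and tryptophan with 83. A group sum often stood for 1 gene: SPATRNALEU.01 made up 99.85% of the leucine counts, SPATRNACYS.02 99.39% of the cysteine counts, SPATRNAALA.06 99.08% of the alanine counts and SPBTRNAHIS.02 98.22% of the histidine counts. The serine sum was more evenly spread, with 9 of its 13 genes above 100 counts. Of the aspartate-coded genes, 5 are annotated as asparagine tRNAs by RefSeq, and they held 405 of the 1719 counts summed under aspartate.

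Library depth and the labels were checked first. Libraries held 117245 to 2121235 gene counts, of which 9631 to 396602 fell on nuclear tRNA genes. Reads set aside for low mapping quality were 79.4%, 67.34% and 67.46% in wt, clr4D and dcr1D at 0 h, and 96.52%, 95.67% and 93.84% at 1 h. In ago1D labelled 2 h they were 81.0%. Reads outside any feature were 7.078%, 6.684% and 6.375% in wt, clr4D and dcr1D at 0 h, and 0.5165%, 0.4595% and 0.5816% at 1 h. What part this make-up had in the changes from 0 h was not tested. ago1 had 11 to 35 counts per wt library and 0 to 8 per library labelled ago1D, but clr4 had 25 to 85 counts in the libraries labelled clr4D against 9 to 31 in wt, and dcr1 had 23 to 79 in those labelled dcr1D against 16 to 37. All 4 strains are described as h+ (P cells), yet the M-cell pheromone genes mfm1, mfm2 and mfm3 summed to 5 to 8 counts each over the wt libraries and to 268 to 1476 each over the libraries labelled clr4D or dcr1D, and the M-cell receptor gene mam2 had 6 counts in wt against 461 and 284. The P-cell genes map2 and map3 had 59 and 60 counts in wt and 310 to 422 in those strains. What part this had in the tRNA results was not tested. Over 4169 features other than nuclear tRNA genes, each wt, clr4D and dcr1D library was most like the same time in the other strains (6 of 6 in each strain), but the ago1D libraries labelled 0, 1 and 2 h were not: ago1D at 2 h was closest to the other strains at 0 h (Pearson r across features 0.803, against -0.361 with 2 h) and ago1D at 0 h to their 1 h (0.548, against -0.146). Over the 51 tRNA genes tested, the ago1D 2 h library was again closest to 0 h (0.931, against -0.668) and ago1D at 0 h to 1 h (0.645, against -0.566), but ago1D at 1 h was closest to its own time. Over these genes 3 other libraries also missed their own time, ago1D at 10 h (closest to 2 h), clr4D at 2 h (closest to 4 h) and dcr1D at 2 h (closest to 1 h). These r values describe libraries across features, which share depth and are not independent replicates. Counts of called genes and sums that rest on these 3 libraries are given with and without them. Exceptions are the split by sequence class, the tests of whether late changes differed from wt, and the lists of genes for the tRNA machinery. Those are given only with the 3 libraries in the fit.

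Nuclear tRNA genes took 5.10% to 20.9% of the gene counts of a library. In wt the share was 16.7% at 0 h, 19.4% at 1 h, 13.01% at 2 h, 16.7% at 4 h, 20.9% at 10 h and 5.10% at 24 h. In ago1D it was 20.2%, 20.2%, 20.6%, 19.1%, 11.6% and 16.3% at the same times. In clr4D it was 16.3%, 19.8%, 17.9%, 18.6%, 12.6% and 8.67%. In dcr1D it was 18.7%, 19.9%, 17.7%, 19.7%, 10.3% and 15.6%. The share was therefore lowest at 24 h in wt and clr4D and at 10 h in ago1D and dcr1D.

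Values by sample are given below as normalised CPM, which are counts scaled to a common library total with edgeR's TMM factors. Tests were quasi-likelihood F-tests of edgeR with terms for strain and time over all 24 libraries, with p-values adjusted by Benjamini and Hochberg over all features tested, and a gene was called at an adjusted p below 0.05. Of the 128 tRNA genes with a count, 51 passed the filter on low counts. The sums by amino acid were tested in the same table with the tRNA genes replaced by their sums, and 19 of 20 passed the filter, all but tryptophan. Nothing says that the libraries came from separate cultures, so the p-values measure only the spread between these libraries.

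**Figure D2:**
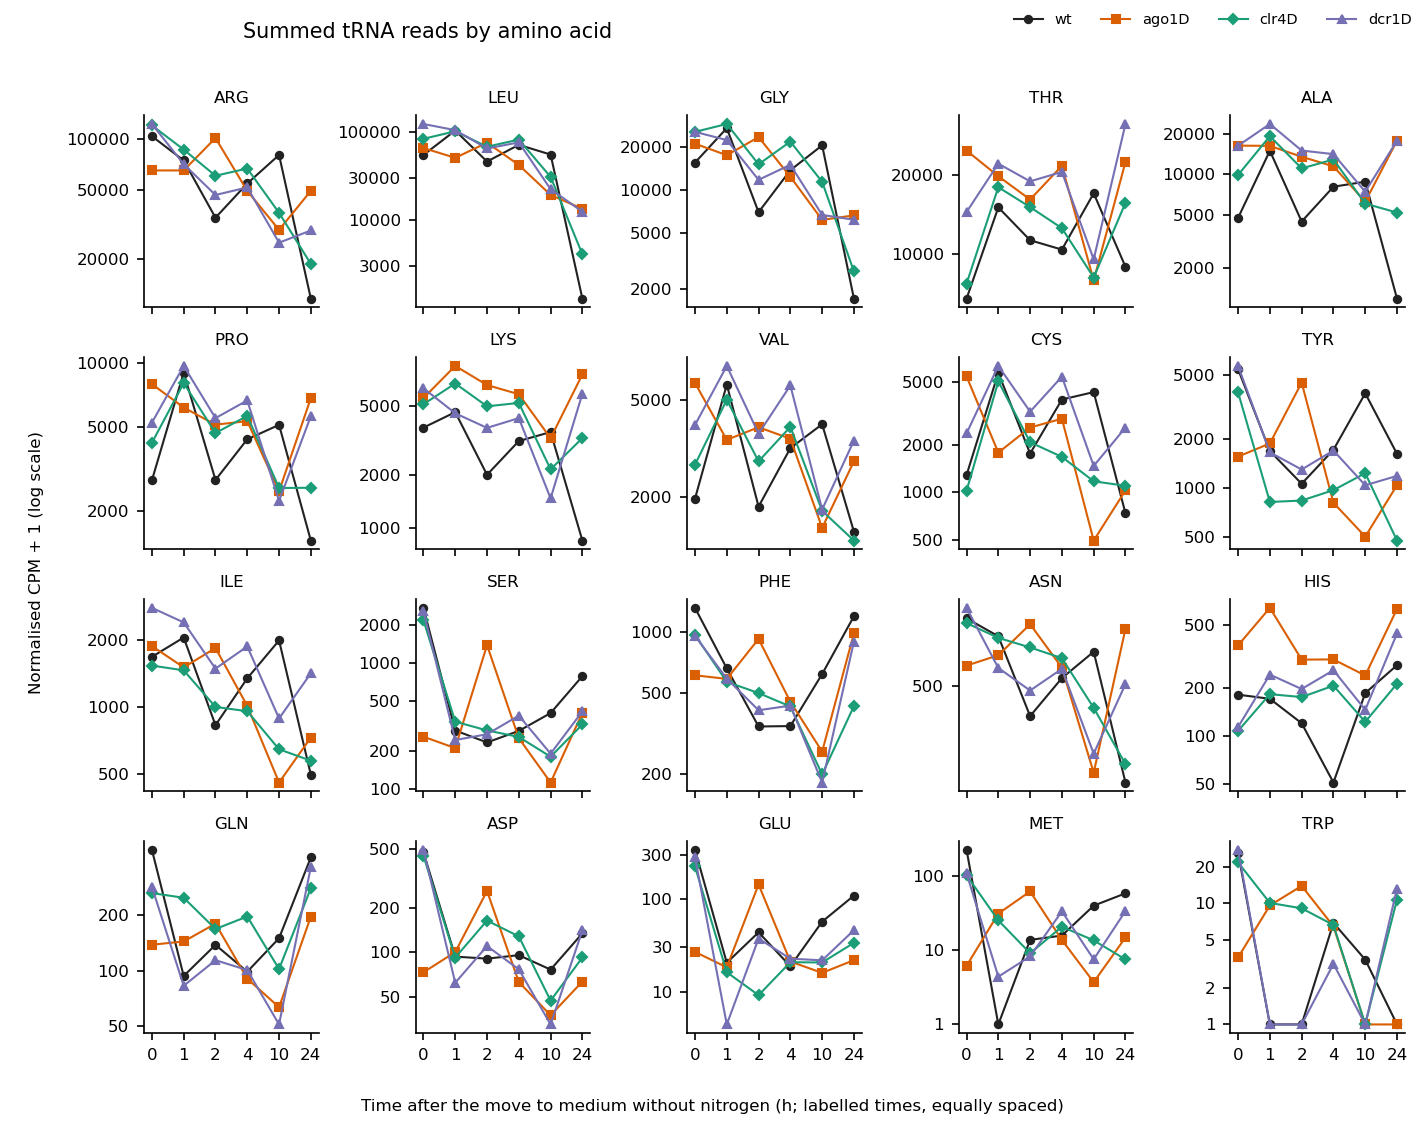
Normalised CPM + 1 (y axis, log scale) of tRNA reads summed by amino acid code, by labelled time without nitrogen (x axis, equally spaced), 1 panel for each of 20 amino acids and 1 point per library, joined by strain. Leucine and glycine are low at 24 h in every strain, and serine, aspartate and glutamate are high at 0 h in wt, clr4D and dcr1D and at the library labelled 2 h in ago1D.

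The first comparison was of 24 h without nitrogen with 0 h. Reads of the leading leucine and glycine genes and of an arginine gene fell in all 4 strains, and reads of a histidine gene and of threonine genes rose. SPATRNALEU.01, the leading leucine gene, had 54212 normalised CPM in wt at 0 h, then 103199 at 1 h, 45894 at 2 h, 71048 at 4 h, 55023 at 10 h and 1091 at 24 h. In ago1D it had 65287, 50561, 74962, 42010, 19181 and 13315 at the same times. In clr4D it had 83025, 101181, 67677, 81433, 30705 and 4029. In dcr1D it had 122249, 104273, 64632, 75704, 22282 and 12314. All 4 libraries at 24 h lay below all 4 at 0 h, and in ago1D, clr4D and dcr1D the 10 h library was already below the earlier ones, whereas in wt it was not.

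Between 24 h and 0 h SPATRNALEU.01 fell by 3.40 on the log2 scale (SE 0.60, adjusted p = 0.000235). Of the 51 tRNA genes tested, 23 fell and 3 rose, where 13.9% of all 4220 features tested fell and 15.1% rose. The median log2 fold change was -1.45 over the tRNA genes and -0.01 over all features. Some of the 51 passed the low-count filter partly through high counts at 0 h, as given below. SPBTRNAARG.05, an arginine gene, fell by 3.40 (SE 0.58, adjusted p = 0.000181) and SPBTRNAGLY.04, the leading glycine gene, by 3.03 (SE 0.55, adjusted p = 0.000328), both in all 4 strains and with no overlap between the times. How many of all features showed no overlap was not counted. SPBTRNAASP.04, a gene countable only over an end, fell by 3.41 (SE 0.51) on 217 counts at 0 h and 8 at 24 h. SPCTRNAGLY.12 fell by 3.24 (SE 0.49) on 431 and 18 counts. SPCTRNATHR.10, a threonine gene, rose by 2.04 (SE 0.41, adjusted p = 0.000717) in 4 of 4 strains, SPBTRNAHIS.02 by 1.12 (SE 0.34, adjusted p = 0.0172) in 4 of 4 strains, and SPBTRNATHR.06 by 1.08 (SE 0.41, adjusted p = 0.0484) in 3 of 4. Among these, SPBTRNAHIS.02 is countable only over an end.

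The count of genes that fell depended on the scaling. With library totals in place of TMM factors the median of all features moved to 1.01 at 24 h against 0 h and that of the tRNA genes to -0.39; 13 tRNA genes were then called lower and 11 higher, where 2.46% of all features were lower and 56.5% higher. SPATRNALEU.01 stayed lower (-2.49) and so did SPBTRNAARG.05 (-2.35) and SPBTRNAGLY.04 (-2.07), and SPATRNATHR.04 (1.38) and SPATRNATHR.03 (1.61) were called higher. Without the 3 ago1D libraries, 40 of 63 tRNA genes tested fell and 4 rose, where 854 of all 4735 features fell and 1137 rose. The filter then asks for counts in fewer libraries, because ago1D has fewer left, so the 63 hold genes absent from the 51. Some could pass on 0 h libraries alone, such as SPBTRNAGLY.03 with 76, 78 and 183 counts at 0 h in wt, clr4D and dcr1D. Such genes can only fall later, so 40 of 63 and 23 of 51 are not like for like. Without all clr4D libraries 8 of 47 fell and 1 rose, and calls over all features dropped too, to 6.04% lower and 6.27% higher. Without all dcr1D libraries 11 of 47 fell and 1 rose, where 7.67% of all features fell and 8.52% rose.

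By amino acid, 8 sums fell and 1 rose between 0 h and 24 h, where 28.8% of the features in that table changed in either direction. Leucine fell by 3.39 (SE 0.58, adjusted p = 0.000167), from 81390 ± 29880 to 7762 ± 6002 normalised CPM (mean ± SD, n = 4 strains). Glycine fell by 2.36 (SE 0.48), from 21840 ± 4727 to 4288 ± 2453, and arginine by 1.96 (SE 0.48), from 102400 ± 26030 to 27310 ± 16550. Glutamate, tyrosine, serine, aspartate and isoleucine fell by 2.09, 2.05, 2.03, 1.75 and 1.33. Histidine rose by 1.04 (SE 0.34, adjusted p = 0.0244) in 4 of 4 strains. Alanine (-0.33, SE 0.46), phenylalanine (-0.18, SE 0.35) and threonine (0.57, SE 0.38) did not pass. With library totals, 3 sums were called lower (leucine, glycine and arginine) and 4 higher (histidine, threonine, glutamine and phenylalanine), where 2.24% of the features in that table were lower and 56.8% higher. Without the 3 ago1D libraries 10 sums fell and 2 rose, histidine (1.23) and threonine (0.97), where 17.9% of features fell and 23.9% rose.

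Because the reads of 2 genes in a library share its scaling, a ratio between them does not depend on it. SPATRNALEU.01 had 13.4 reads per read of SPATRNAALA.06 in wt at 0 h, 6.93 at 1 h, 10.4 at 2 h, 8.84 at 4 h, 6.30 at 10 h and 1.08 at 24 h. The ratio at 24 h was 0.752 in ago1D, 0.782 in clr4D and 0.698 in dcr1D, and the other libraries of those strains lay between 3.01 and 8.81. The 24 h library thus had the lowest ratio in each of the 4 strains. The choice of this pair was made knowing its values.

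**Figure D3:**
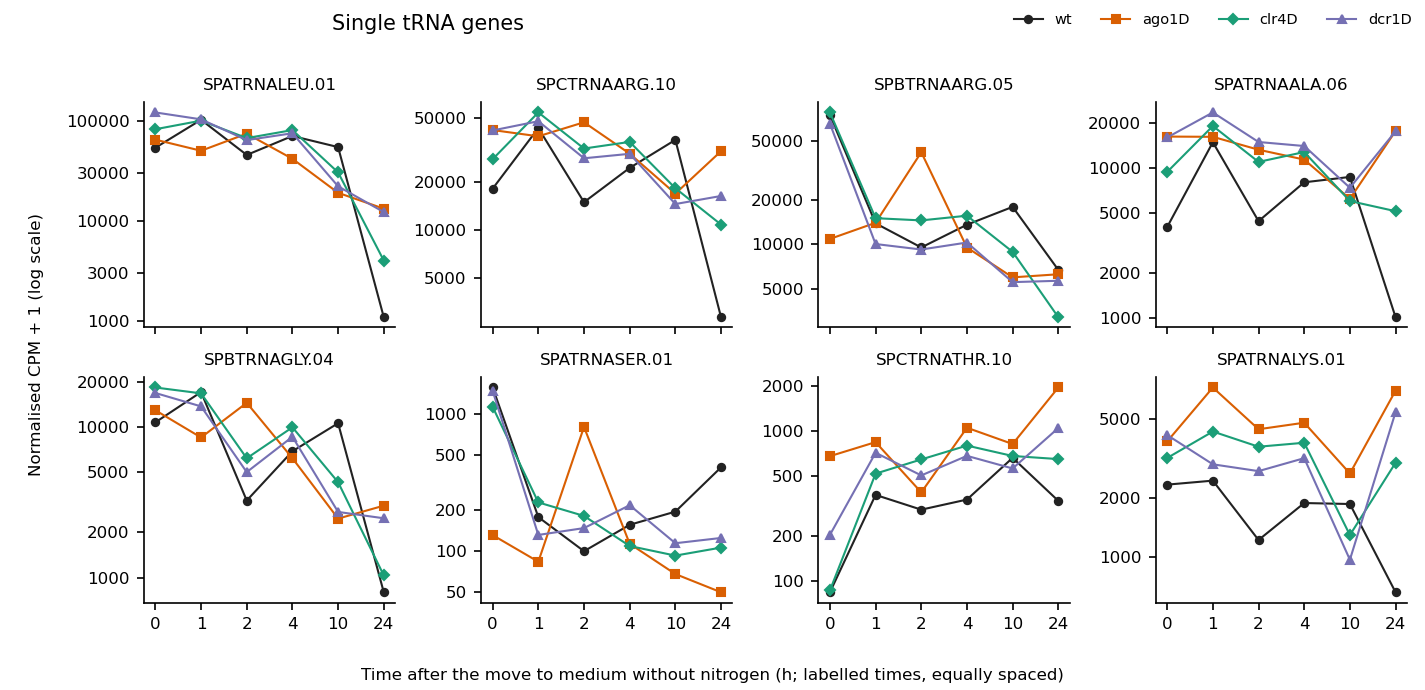
Normalised CPM + 1 (y axis, log scale) of 8 single tRNA genes by labelled time without nitrogen (x axis, equally spaced), 1 point per library, joined by strain. SPATRNALEU.01 and SPBTRNAGLY.04 are low at 24 h, SPBTRNAARG.05 and SPATRNASER.01 are high at 0 h (in ago1D at the library labelled 2 h), and SPATRNALYS.01 and SPCTRNATHR.10 are higher in ago1D than in wt at each time.

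Several of the genes that were lower at 24 h were already low at 1 h. SPBTRNAARG.05 had 75190 normalised CPM in wt at 0 h, 13885 at 1 h, 9526 at 2 h, 13590 at 4 h, 17952 at 10 h and 6714 at 24 h. In clr4D it had 78384 at 0 h and 3207 to 15644 later, and in dcr1D 65846 at 0 h and 5547 to 10290 later. In ago1D it had 10885 at 0 h, 14009 at 1 h, 42139 at 2 h and 5975 to 9520 from 4 h on. In wt, clr4D and dcr1D the 0 h library stood far above the rest, and in ago1D the library labelled 2 h did.

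The other main arginine gene, SPCTRNAARG.10, did not share this course. It had 18136 normalised CPM in wt at 0 h, 43311 at 1 h and 36571 at 10 h. Reads of SPBTRNAARG.05 per read of SPCTRNAARG.10 were 4.15 in wt at 0 h and 0.321 at 1 h, 2.83 and 0.277 in clr4D, and 1.57 and 0.210 in dcr1D. In ago1D the ratio was 0.258 at 0 h, 0.364 at 1 h and 0.895 at 2 h. In each strain the highest ratio was that of the library with most SPBTRNAARG.05 reads. This ratio was above 1 in wt, clr4D and dcr1D but not in ago1D. The only other library with a ratio above 1 was wt at 24 h, with 2.35. This pair too was picked knowing its values.

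The comparison of 1 h with 0 h was added after these values were seen. SPATRNASER.01, the leading serine gene, had 1566 normalised CPM in wt at 0 h, 1129 in clr4D and 1479 in dcr1D, and 91.06 to 407 in the other libraries of those strains; the ago1D library labelled 2 h had 805. Of the 51 tRNA genes, 20 fell and 1 rose between 0 h and 1 h, where 9.24% of all features fell and 5.92% rose, and the median was -0.69 over the tRNA genes. Some of the 51 passed the low-count filter partly through high counts at 0 h, as given below. SPBTRNAARG.05 fell by 2.14 (SE 0.55, adjusted p = 0.0194), SPATRNASER.01 by 2.71 (SE 0.68, adjusted p = 0.0177) and SPATRNATYR.01, a tyrosine gene, by 4.43 (SE 0.91, adjusted p = 0.0138). SPATRNAALA.02 had 462 counts at 0 h and 1 count at 1 h, a ratio of pooled counts, 1 h to 0 h, of 0.00506 with a 95% exact interval of 0.000128 to 0.0283. SPCTRNAGLU.10 had 250 and 2 counts, a ratio of 0.0187 (0.00225 to 0.0683). These intervals cover counting error only. SPCTRNATHR.10 rose by 1.51 (SE 0.41, adjusted p = 0.0224).

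The genes that fell in the first hour were mostly those counted through their ends. Of the 19 tested genes that are unique only over an end, 15 fell, with a median of -2.88. Of the 24 that are unique in part, 4 fell and 1 rose, with a median of 0.07, and of the 8 tested that are unique throughout, 1 fell (SPBTRNAARG.05), with a median of 0.38. Genes unique only over an end summed to 5821 normalised CPM in wt at 0 h and 681 at 1 h, to 4531 and 829 in clr4D, and to 4310 and 640 in dcr1D; in ago1D they summed to 883, 1287 and 2896 at 0, 1 and 2 h. In wt, 83 of these 95 genes had a count at 0 h and 34 at 1 h. These 2 libraries held 640322 and 282058 gene counts, so the numbers are not at equal depth. Only 19 of the 95 passed the filter, and high counts at 0 h helped genes of this class to pass it. SPCTRNAGLU.10 had 65, 24 and 159 counts at 0 h in wt, clr4D and dcr1D, and 0, 2 and 0 at 1 h. Genes that pass in this way are bound to fall later, so 15 of 19 is not like for like with the other classes. The sums over all 95 genes do not rest on the filter. The libraries at 0 h and 1 h also differed in the share of reads set aside for low mapping quality, and what part this had was not tested. At 24 h the sum was back at 2927 in wt, against 1031 to 1476 in the libraries labelled ago1D, clr4D and dcr1D. Between 24 h and 0 h, 11 of the 19 fell, 9 of the 24 and 3 of the 8. The limit set by the filter holds here too.

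**Figure D4:**
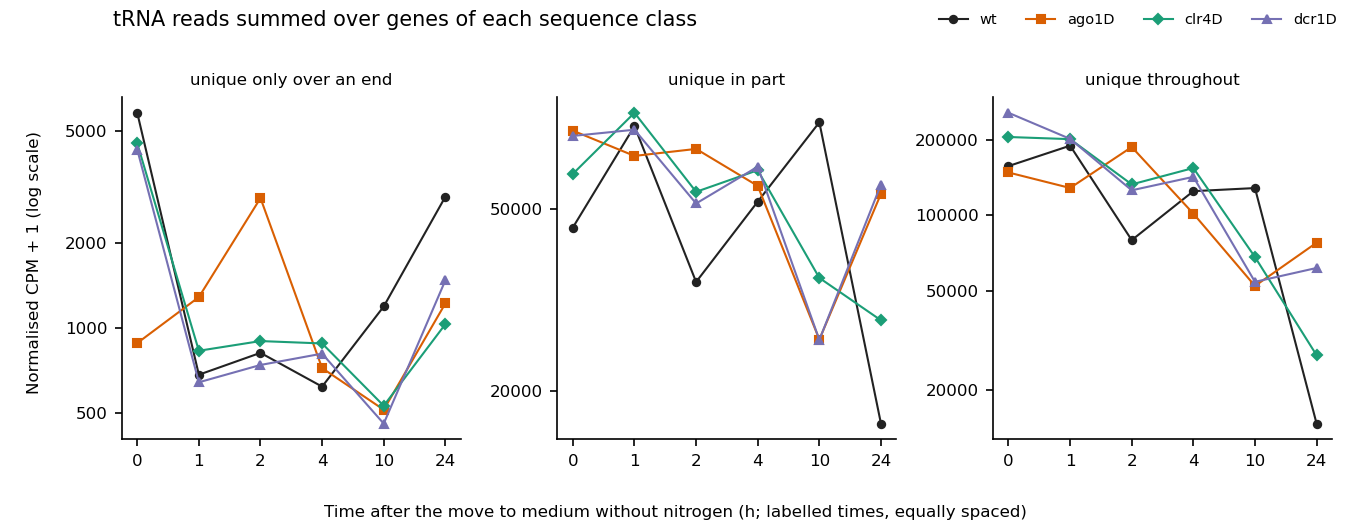
Normalised CPM + 1 (y axis, log scale) summed over the genes of 3 sequence classes by labelled time (x axis, equally spaced), 1 point per library, joined by strain. Genes unique only over an end are highest at 0 h in wt, clr4D and dcr1D (4310 to 5821) and at the library labelled 2 h in ago1D (2896), and fall at 1 h to 640 to 829 in the first 3. Genes unique throughout differ less between 0 and 1 h, with 156900 and 189200 in wt, 204900 and 200900 in clr4D, and 255900 and 201400 in dcr1D.

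By amino acid, glutamate fell by 3.97 (SE 0.73, adjusted p = 0.0146), serine by 2.79 (SE 0.60, adjusted p = 0.016), methionine by 2.68 (SE 0.83, adjusted p = 0.0342) and aspartate by 2.06 (SE 0.45, adjusted p = 0.016) between 0 h and 1 h. No sum rose, and 14.9% of the features in that table were called. Without the 3 ago1D libraries 6 sums fell and 3 rose, where 14.3% of features fell and 14.3% rose: the cysteine sum rose by 1.99 (SE 0.46, adjusted p = 0.00162), the proline sum by 1.19 (SE 0.41, adjusted p = 0.0325) and the valine sum by 1.08 (SE 0.36, adjusted p = 0.0264). Serine had 2738 normalised CPM in wt, 2185 in clr4D and 2575 in dcr1D at 0 h and 245 to 343 at 1 h, with 261 and 212 in ago1D. In fission yeast some serine and initiator methionine tRNA genes are transcribed as 1 precursor. Of the serine genes, 3 lie 7 bases from a methionine gene: SPATRNASER.01 with 4489 counts beside SPATRNAMET.01 with 0, SPATRNASER.03 with 835 beside SPATRNAMET.03 with 79, and SPCTRNASER.11 with 264 beside SPCTRNAMET.07 with 2.

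The first-hour calls changed with the libraries in the fit. Leaving out the ago1D libraries gave 22 genes lower and 8 higher of 49 tested, where 16.6% of all features were lower and 16.9% higher. Leaving out only ago1D at 0, 1 and 2 h gave 36 lower and 8 higher of 63 tested, where 14.6% of all features were lower and 14.7% higher. The 63 again passed a looser filter and hold genes that could enter on 0 h libraries alone. Their share that fell is therefore not like for like with 20 of 51. Leaving out wt, clr4D or dcr1D, with the ago1D libraries kept, left 0 tRNA genes called by edgeR, and 0% of all features.

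**Figure D5:**
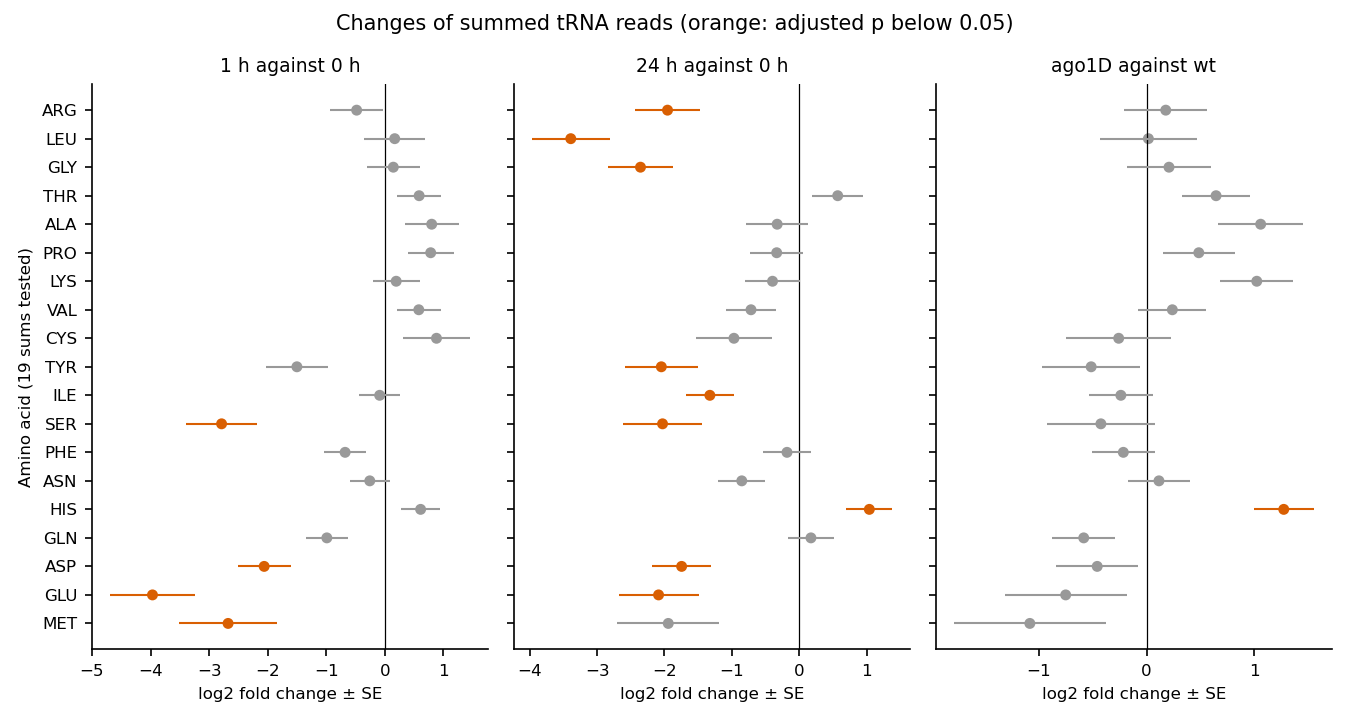
Log2 fold change (x axis, bars show ± SE from edgeR) of 19 sums of tRNA reads by amino acid (y axis) in 3 comparisons; orange marks sums with an adjusted p below 0.05. Glutamate, serine, methionine and aspartate are lower at 1 h, 8 sums including leucine are lower and histidine is higher at 24 h, and histidine is higher in ago1D than in wt.

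Late times (10 and 24 h) were also compared with early ones (0, 1, 2 and 4 h). Of the 51 tRNA genes, 18 were lower and 1, SPCTRNATHR.10, higher, where 11.6% of all features were lower and 14.1% higher; with library totals, 7 were lower and 7 higher, where 1.54% of all features were lower and 62.9% higher. With the 3 ago1D libraries left out, 21 of 63 were lower and 3 higher, where 13.1% of all features were lower and 20.3% higher. Here too the 63 passed a looser filter than the 51. The log2 difference was -2.24 (SE 0.36) for the leucine sum, -1.78 (SE 0.34) for SPBTRNAGLY.04 and -0.91 (SE 0.31) for SPCTRNAARG.10. By amino acid 8 sums were lower and none higher, where 25.7% of the features in that table were called: leucine, glycine, arginine, aspartate, cysteine, isoleucine, valine and asparagine. Leaving the same 3 libraries out gave 10 lower and none higher, where 13.3% of the features were lower and 20.3% higher. At 10 h the leucine sum had 55098 normalised CPM in wt, 19192 in ago1D, 30739 in clr4D and 22324 in dcr1D. Whether the late difference departed from wt was tested for each of the other 3 strain labels. None of the 51 genes or 19 sums was called in ago1D, clr4D or dcr1D by edgeR or by DESeq2, where 0% of all features were called by edgeR at gene level; at an unadjusted p below 0.05 there were 2, 1 and 1 of the 51 genes.

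Strains were compared at matched times. In ago1D, 3 of the 51 tRNA genes (5.88%) were higher than in wt and 0 lower, where 3.06% of all features were higher and 1.26% lower. With so few calls this is near the share of all features, so it is no result about tRNA genes as a set. SPATRNALYS.01, a lysine gene, had 662 to 2443 normalised CPM in the 6 wt libraries (median 1870) and 2656 to 7255 in the 6 ago1D libraries (median 4631). All ago1D libraries lay above all wt libraries, and clr4D (1293 to 4337) and dcr1D (969 to 5444) overlapped both. The gene was named for its small adjusted p, so this separation adds nothing to the test. How many of all features were so separated was not counted. It was higher in ago1D by 1.42 (SE 0.33, adjusted p = 0.0142). SPCTRNATHR.10 was higher by 1.57 (SE 0.33, adjusted p = 0.0066) and SPBTRNAHIS.02 by 1.32 (SE 0.28, adjusted p = 0.00677), both at 6 of 6 times though the groups overlapped.

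Histidine was also the only sum called in ago1D, with 164 ± 75.5 normalised CPM in wt and 412 ± 174 in ago1D (mean ± SD, n = 6 libraries; log2 fold change 1.27, SE 0.28, adjusted p = 0.00827), where 4.27% of the features in that table were called. A single call among 19 sums (5.26%) is near this share. SPBTRNAHIS.02, counted only over an end, made up 98.22% of the histidine counts. The alanine (1.06, SE 0.39, adjusted p = 0.153) and lysine sums (1.02, SE 0.34, adjusted p = 0.0964) did not pass. With the ago1D libraries labelled 0, 1 and 2 h left out, all 3 genes stayed higher (1.53, 1.48 and 1.03) and 10 others were lower, among them SPATRNASER.01 and SPBTRNATYR.04. Of all features 4.54% were then higher and 2.49% lower. The tRNA genes tested in that fit passed the looser filter given above. Some of the 10 rest on few reads: in ago1D at 4, 10 and 24 h SPBTRNAARG.07 had 2, 0 and 0 counts and SPCTRNASER.09 had 2, 0 and 1. With wt and ago1D alone fitted, 0 of the 36 tRNA genes tested were called by edgeR, where 0.698% of all features were higher and 0.0838% lower. With no term for time 0 of 51 were called, where 0.782% were higher and 0.403% lower.

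In clr4D none of the 51 genes was called by edgeR, where 0.829% of all features were higher and 0.0711% lower; 3 genes had an unadjusted p below 0.05, and DESeq2 called 1. No sum was called, where 0.931% of features were; 1 had an unadjusted p below 0.05 and DESeq2 called none. In dcr1D 1 gene was lower and none higher, where 0.664% of all features were lower and 1.87% higher. It was SPCTRNAPHE.05, a phenylalanine gene unique only over an end, which had 371 normalised CPM in wt at 0 h, 53.2 to 139 from 1 to 10 h and 756 at 24 h, and in dcr1D 182 at 0 h and 5.46 to 27.3 later (log2 fold change -2.93, SE 0.69, adjusted p = 0.0216). The wt library at 24 h alone held 210 of the 510 wt counts. The gene was as low in the other labelled strains, with a median of 12.6 in clr4D (log2 fold change -2.78, adjusted p = 0.0516) and 27.6 in ago1D (-2.24, adjusted p = 0.0659) against 17.4 in dcr1D and 109.9 in wt. Without the 3 ago1D libraries it was called lower than wt in all 3, by -2.84 in dcr1D, -2.67 in clr4D and -3.06 in ago1D. These comparisons share the wt libraries. No sum was called in dcr1D by edgeR, where 2.53% of features were; 2 had an unadjusted p below 0.05, and DESeq2 called 1. The alanine sum had the largest difference, 1.22 (SE 0.39, adjusted p = 0.0964), from 7017 ± 4737 in wt to 15660 ± 5256. It passed without the 3 ago1D libraries (1.25, SE 0.38, adjusted p = 0.0337), and in clr4D the glutamate (-0.999) and tyrosine (-1.05) sums were then called lower.

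Reads on the genes for the tRNA machinery were counted in the same libraries. They are small RNA reads and the counting strand is not given, so they are not a measure of messenger RNA. Of 35 genes that RefSeq annotates as aminoacyl-tRNA synthetases, the enzymes that load tRNAs, 11 were lower and 1 higher at 24 h than at 0 h (median -0.51), where 13.9% of all features were lower and 15.1% higher. At 1 h, 9 were lower and 0 higher (median -0.58), where the shares were 9.24% and 5.92%. RefSeq does not state which of them are mitochondrial. At 24 h irs1 (isoleucine) changed by -1.55 on the log2 scale (SE 0.32, adjusted p = 0.00102), hrs1 (histidine) had -1.52 (SE 0.32) and trs1 (threonine) -1.20 (SE 0.25). Of 17 tested genes for RNA polymerase III and its factors, 3 were lower and 2 higher at 24 h, near the shares of all features. Of these, rpc34, a polymerase subunit, had -2.38 (SE 0.44, adjusted p = 0.000359), maf1, the repressor of the polymerase, 1.54 (SE 0.38, adjusted p = 0.00418), and brf1, a subunit of its initiation factor, 0.99 (SE 0.31, adjusted p = 0.0203). Of 22 tested genes for tRNA processing and modification, fewer than the shares of all features were called: 1 was higher, dus4 (a dihydrouridine synthase, 1.66, SE 0.37), and 1 lower, los1 (a tRNA export receptor, -1.16, SE 0.39). Several of the named genes had few counts per library: maf1 had 5 to 24, brf1 3 to 30, dus4 2 to 36, rpc34 0 to 105 and hrs1 6 to 142. The deepest of them, irs1, had 32 to 677.

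Between strains these lists held few calls. In ago1D and in dcr1D 1 of the 35 synthetase genes was lower than in wt and none higher, in both cases the proline synthetase gene SPBC24C6.03 (-0.91, SE 0.24, adjusted p = 0.0292, and -1.11, SE 0.24, adjusted p = 0.0118). Of all features 1.26% were lower in ago1D and 0.664% in dcr1D, so a single call among 35 genes is near these shares. Both comparisons share the wt libraries. Of the 17 RNA polymerase III genes none was called by edgeR in ago1D, clr4D or dcr1D, with 3, 1 and 2 at an unadjusted p below 0.05. Of the 22 processing genes none was called either, with 4, 4 and 3 at that level, and of the synthetase genes none was called in clr4D, with 3. These lists were read in the edgeR fit only.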

How the data were processed

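Small RNA libraries of 4 strains at 6 times were read as the deposited whole-number counts per feature. Per the submitters' processing notes, the authors used cutadapt, Bowtie2 2.1.0, HTSeq 0.6.1 and the ASM294v2 assembly; the other settings, the counting strand included, are not given in the sources used here. The 5 summary lines of each file were left out of the tests. Reads set aside for low mapping quality are not in the counts, and which genes they came from cannot be read from the files.

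Counts were tested with edgeR 4.0.16 (limma 3.58.1, R 4.3.3) by quasi-likelihood F-tests with TMM factors, filterByExpr by strain (minimum count 10) and terms for strain and time, with Benjamini-Hochberg adjustment over all features; interactions were fitted separately. DESeq2 1.42.0 was an alternative, with other scalings, no filter, fewer libraries and leaving out each time or strain. The fit was tested on simulated data. Time serves as the block between strains, since libraries share only their labelled time.

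Named genes were the 12 with most counts, the leading gene of each amino acid, up to 5 risers and 5 fallers per comparison, and up to 3 per pathway list; SPATRNALEU.03, SPBTRNATHR.07 and the serine and methionine neighbours were added after their values were seen. Sequences came from RefSeq ASM294v3 by identifier, so windows may differ from ASM294v2. The genes and lists were chosen with earlier results of these data known. Pathway lists were made from gene symbols and RefSeq product names.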

Additional observations from a re-analysis of the deposited data

Results flagged for a closer look

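Within each strain, the 6 libraries were searched for a single one far from the others, in 128 groups of 6 values, and 23 were flagged. The cutoff flags about 1 in 20 groups of normally distributed replicates. These groups hold unlogged values of 6 different times, so that rate does not hold for them. In all 23 the value stood above the rest. The library was wt at 0 h in 5, clr4D at 0 h in 6, dcr1D at 0 h in 6, the ago1D library labelled 2 h in 5 and clr4D at 1 h in 1. The groups share libraries and reads, so the 23 are not independent.

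SPBTRNAARG.05 reached 75190 normalised CPM in wt at 0 h, 42140 in ago1D at 2 h, 78380 in clr4D at 0 h and 65850 in dcr1D at 0 h. The serine sum reached 2738, 1387, 2185 and 2575 in the same 4 libraries. The aspartate sum reached 470.7, 257.7, 445.8 and 489.4, and the glutamate sum 340.3, 142.8, 224.2 and 281.6. The methionine sum reached 225.6 in wt, 101.7 in clr4D and 108.1 in dcr1D at 0 h. The tyrosine sum reached 4486 in ago1D at 2 h, 3900 in clr4D at 0 h and 5688 in dcr1D at 0 h. The cysteine sum reached 5072 in clr4D at 1 h.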

How the results depend on the processing

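Counts of called tRNA genes are given first, then of sums by amino acid. For ago1D against wt, 3 genes and 1 sum became 8 and 3 with library totals, 5 and 2 with DESeq2, 13 and 2 without ago1D at 0, 1 and 2 h, and 0 and 0 both without the replicate block (the time term) and with only the 2 strains. For clr4D, 0 genes became 1 with library totals, with no filter and with DESeq2, 3 without those ago1D libraries and 2 with only the 2 strains, and 0 sums became 2 and 1 in the last 2 settings. For dcr1D, 1 gene became 2 with DESeq2, 6 without those ago1D libraries, 0 without the replicate block and 2 with only the 2 strains, and 0 sums became 1 with DESeq2 and 1 without those libraries. For 1 h against 0 h, 21 of 51 genes became 40 of 128 with no filter, a smaller share, and 44 of 63 without those libraries, and 4 sums became 9 without them. For 24 h against 0 h, 26 of 51 genes became 45 of 128 and 44 of 63 in those 2 settings. The 63 passed a looser filter than the 51, as given above, and the cause of these moves was not tested. Leaving out each time or strain in turn gave 1 to 14 genes and 0 to 4 sums for ago1D, 0 to 1 and 0 to 0 for clr4D, 0 to 3 and 0 to 0 for dcr1D, 0 to 30 and 0 to 10 for 1 h, 9 to 33 and 2 to 12 for 24 h, 6 to 22 and 1 to 12 for late against early, and 0 to 0 for each interaction. Each named result was then paired with each alternative setting in which it was tested. Settings without a test of it are not among the lost calls: at 1 h SPCTRNAGLU.10 had 7 pairs and SPATRNAASP.01 had 11. Of these pairs, 396 for genes and 193 for sums kept their call and direction, 94 and 52 lost the call, and none reversed. Several settings only rescale the same libraries, so the pairs are not independent. For genes at 1 h against 0 h, leaving out each strain in turn kept the call in 8 pairs and lost it in 22. At 117245 gene counts in the shallowest library, genes with few counts could not be compared.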
